A study of Rattus norvegicus with 4 samples.

Results

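The 10 genes described here are transcription factors of heart muscle: Gata4, Gata6, Nkx2-5, Tbx5, Tbx20, Hand2, Mef2a, Mef2c, Mef2d and Irx4. They were taken by symbol from the 15731 genes in the RNA-seq data, and each symbol was found once. The cells were ventricular cardiomyocytes, heart muscle cells, isolated from wild type Wistar rats at postnatal day 1 and kept in primary culture. Cultures were transfected at 25 nM with a synthetic mimic of 1 of the 3 microRNAs of the miR-106b-25 cluster, hsa-miR-106b-5p (miR-106b), hsa-miR-93-5p (miR-93) or hsa-miR-25-3p (miR-25). The control culture received a mimic of cel-miR-67, a worm microRNA. RNA was harvested 72 h later. A second passage of the sample labels gives the concentration in mM, and the labels give both day 0 and day 1 as the age of the rats. Each of the 4 cultures gave 1 library, so no difference between mimics has a replicate check and no p-value is given. These were primary cultures enriched in cardiomyocytes by preplating, so other heart cells can be among them.

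A core set of transcription factors switches on and maintains the genes of the contracting heart muscle cell. Zinc finger factors (Gata4, Gata6), a homeodomain factor (Nkx2-5), T-box factors (Tbx5, Tbx20), a basic helix-loop-helix factor (Hand2) and MADS-box factors (Mef2a, Mef2c, Mef2d) bind the promoters and enhancers of contractile and natriuretic peptide genes, often together. Irx4, an Iroquois homeodomain factor, is known for marking ventricular rather than atrial muscle. A microRNA pairs through its seed, bases 2 to 8 from the 5′ end, with messenger RNAs and lowers their stability or translation. The study examined Hand2 and Mef2d as targets of miR-25 in other assays, which are not analysed here.

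The mature rat microRNAs of the same names are shown because their seeds group the mimics. They are from RefSeq (build GRCr8) and lie on the minus strand of chromosome 12, at chr12:22157103-22157123 for miR-106b-5p, chr12:22156894-22156916 for miR-93-5p and chr12:22156652-22156673 for miR-25-3p. The capitals mark the seed.
rno-miR-106b-5p: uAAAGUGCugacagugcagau
rno-miR-93-5p: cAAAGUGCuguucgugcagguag
rno-miR-25-3p: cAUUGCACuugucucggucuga
The first and the second share the seed AAAGUGC, which 5 of 693 mature rat microRNAs carry. The third has the seed AUUGCAC, also carried by 5 of 693. The mimics carried the human names, and their letters were not compared with these.

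Expression is given as RPKM, the reads on a gene scaled to its length and to the size of the library, as the authors deposited it. Library sizes were 22674410 to 29749467 reads, and the genes in the data held 60.4% to 66.9% of them. The whole reads behind each RPKM value were recovered, and they give the 95% exact intervals printed in parentheses. Such an interval accounts for counting error alone, not for the spread between cultures. A gene is called higher or lower with a mimic when its RPKM differs by more than 1.3-fold from cel-miR-67 and is above 1.0 in both libraries. Only genes past this cutoff are said to rise or fall. All 10 factors were above 1.0 in the 4 libraries, and their reads ranged from 172 for Irx4 with miR-25 to 5904 for Mef2a with miR-106b.

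In the control library, Tbx20 was the most abundant of the 10 factors at 48.9 RPKM (47.2 to 50.6). Hand2 followed at 44.9 RPKM (41.6 to 48.5), and these intervals overlap. Mef2a was at 36.6, Nkx2-5 at 29.2 and Gata4 at 23.1 RPKM, each apart from its neighbours beyond counting error. A lower tier began with Gata6 at 8.62 and Irx4 at 8.47 RPKM, which counting error does not separate. Mef2d was at 6.46, Mef2c at 4.97 and Tbx5 at 3.01 RPKM, again each apart from the next. The 5 factors of the upper tier stood at percentiles 85.2 to 93.2 of all genes in that library, and Tbx5 at percentile 42.0.

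This order depends on the gene lengths behind the RPKM values. Mef2c was counted over 18075 bases, longer than 99.9% of genes, and Hand2 over 645 bases, at percentile 7.53, against a median gene of 2335 bases. Scaled to library size alone, Mef2c had 89.8 RPM in the control library and Hand2 29.0 RPM, so the order of this pair turns on the length used. Ratios of a gene between libraries do not depend on its length. In RefSeq, an uncharacterised long noncoding RNA overlaps Gata4 and another overlaps Mef2c. The library kit does not mark strand, so reads of overlapping genes cannot be told apart.

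**Figure D1:**
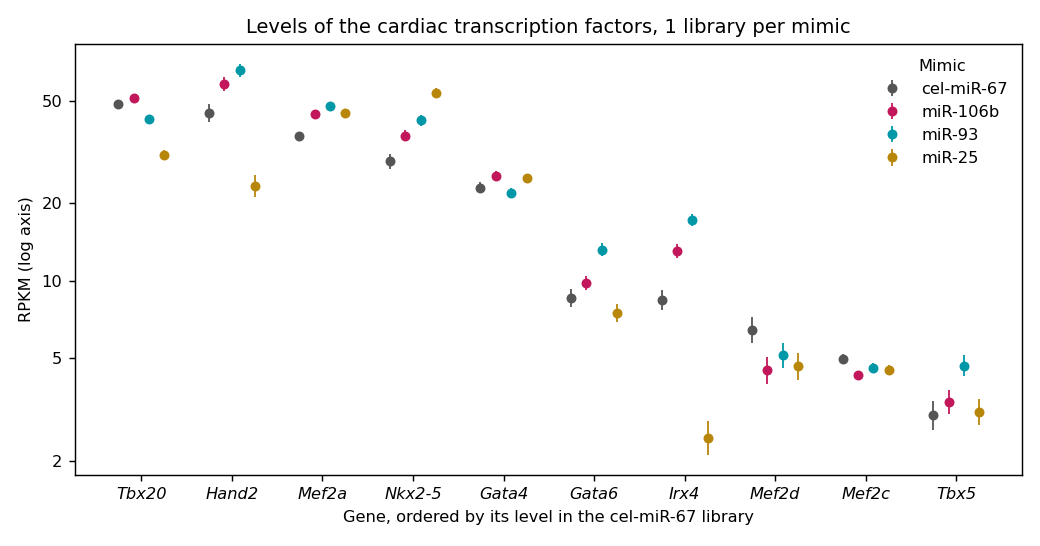
RPKM (log axis) of the 10 factors in the 4 libraries, ordered by level in the cel-miR-67 library; bars are 95% exact intervals of counting error. Irx4 spans 2.46 to 17.2 RPKM and Hand2 23.4 to 66.0, while Gata4 stays within 22.0 to 25.6 and Mef2c within 4.30 to 4.97.

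The level order changed with the mimics. Hand2 led the factors with miR-106b (58.2 RPKM) and with miR-93 (66.0), and stood at rank 5 with miR-25, at 23.4 RPKM, where its interval overlapped that of Gata4. Nkx2-5, at rank 4 in the other libraries, led with miR-25 at 53.7 RPKM. Irx4 ranked last with miR-25, at 2.46 RPKM (2.10 to 2.85), with an interval that overlapped that of Tbx5 (2.76 to 3.47). The ratio of the highest to the lowest library was 7.01 for Irx4 and 2.82 for Hand2, and between 1.15 and 1.84 for the other 8 factors.

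The first question of the design is how the factors differ between each mimic and the control. With miR-106b, Irx4 rose and Mef2d fell, and the other 8 factors stayed within 1.3-fold. Over all genes tested in that comparison 11.9% rose and 12.7% fell, so 1 factor of 10 in each direction is near the background. With miR-93, 6 factors rose and none fell: Irx4, Tbx5, Gata6, Hand2, Nkx2-5 and Mef2a. The background was 15.1% of genes for a rise and 15.6% for a fall. With miR-25, Nkx2-5 rose and Irx4, Hand2, Tbx20 and Mef2d fell, against 19.3% and 22.6% of all genes. The shares furthest from the background were the 60.0% of factors that rose with miR-93 and the 40.0% that fell with miR-25. Scaled by the reads on the listed genes in place of the library size, 3 factors rose and 1 fell with miR-106b, and 2 rose and 3 fell with miR-25. The shares of all genes above are under library-size scaling, and those under this other scaling are not given, so these recounts have no background. No test was made of any of these shares, and the factors were chosen with earlier results of these data known. The 3 comparisons use the same control library.

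The intervals of 9 of the 10 factors lay off 0 in each comparison. An interval leaves 0 more readily for a gene with more reads. That of Tbx20 with miR-106b (4211 reads) did so at a log2 ratio of 0.08. The shares below thus depend on depth as well as on the size of the ratios. With miR-106b, the interval of the log2 ratio lay above 0 for 7 factors and below 0 for 2, against 25.0% and 27.4% of all genes tested. With miR-93 it lay above 0 for 6 and below 0 for 3, against 27.7% and 29.5%. With miR-25 it lay above 0 for 3 and below 0 for 6, against 31.7% and 34.5%. The median log2 ratio of the 10 factors was 0.18 for miR-106b, 0.46 for miR-93 and −0.17 for miR-25, and the medians of all genes tested were between −0.01 and −0.00. Taken without sign, the median log2 ratio of the factors was 0.24, 0.46 and 0.38 in the same order, against 0.20, 0.23 and 0.31 for all genes.

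**Figure D2:**
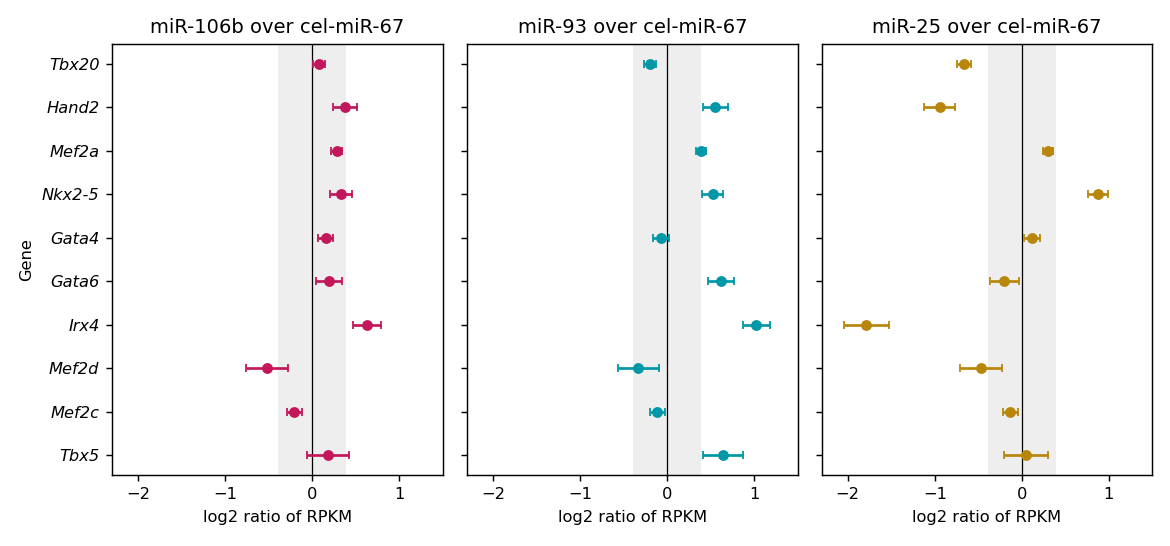
Log2 ratio of RPKM of each factor, mimic over cel-miR-67, in 3 panels; bars are 95% exact intervals of counting error and the grey band is within 1.3-fold. Irx4 lies at 0.63, 1.03 and −1.78 in the panels from left to right, and Hand2 at 0.37, 0.56 and −0.94, while Mef2d lies below 0 in each.

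Irx4 (ENSRNOG00000012720) had the widest range of the 10 factors. It was at 8.47 RPKM with cel-miR-67, 2.46 with miR-25, 17.2 with miR-93 and 13.1 with miR-106b. The libraries of the mimics that share a seed were thus both above the control and the miR-25 library was below it. Its log2 ratio over the control was 0.63 (0.47 to 0.78) with miR-106b and 1.03 (0.87 to 1.18) with miR-93, a 2.04-fold rise. With miR-25 it was −1.78 (−2.04 to −1.53), so it fell by 71.0% and ranked 68 from the lowest among the 11198 genes tested.

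Of the Iroquois relatives of Irx4, named here after their values were seen, Irx3 was at 9.34 RPKM in the control, 7.75 with miR-25, 18.1 with miR-93 and 9.78 with miR-106b. Irx5 was at 3.39, 2.77, 5.44 and 3.91 RPKM in the same order. Both rose with miR-93 (log2 ratio 0.96 for Irx3 and 0.68 for Irx5). With miR-25, Irx3 was at −0.27 and Irx5 at −0.29, both within 1.3-fold, where Irx4 fell by 1.78 on the log2 scale. Irx2, at 1.27 RPKM in the control, was at 1.85 RPKM with miR-25, on the other side of the control (0.55, −0.03 to 1.14), and rose to 2.06 with miR-93 (0.70).

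Hand2 (ENSRNOG00000060448), a factor of ventricle and neural crest development that takes part in the pathological growth of heart muscle, was at 44.9 RPKM with cel-miR-67 (657 reads). It was at 58.2 RPKM with miR-106b (1117 reads), 66.0 with miR-93 (1163 reads) and 23.4 with miR-25 (411 reads). As for Irx4, the miR-106b and miR-93 libraries were above the control and the miR-25 library below it. The log2 ratio was 0.37 (0.23 to 0.52) with miR-106b, just inside the cutoff at 29.6% above the control and past it when scaled by the reads on the listed genes (0.46). It was 0.56 (0.42 to 0.70) with miR-93 and −0.94 (−1.12 to −0.76) with miR-25, so it fell by 48.0% and ranked 671 from the lowest among 11198 genes.

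The stretches upstream of the transcription starts of Hand2 and Irx4 are shown because these genes lay on the same side of the control in each of the 3 comparisons. Gata6 lay on those sides too (0.19, 0.62 and −0.20 in the order miR-106b, miR-93, miR-25), and its stretch is not printed. Those printed are the 250 bases before the start in RefSeq build GRCr8, chr16:37931489-37931738 and chr1:31868090-31868339. Both are on the minus strand and are written 5′ to 3′ in the direction of transcription, with motif matches in capitals.
Hand2: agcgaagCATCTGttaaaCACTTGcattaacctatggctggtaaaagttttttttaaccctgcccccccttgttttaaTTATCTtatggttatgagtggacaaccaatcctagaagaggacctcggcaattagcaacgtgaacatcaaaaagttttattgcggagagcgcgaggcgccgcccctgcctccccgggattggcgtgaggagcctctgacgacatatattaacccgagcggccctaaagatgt
Irx4: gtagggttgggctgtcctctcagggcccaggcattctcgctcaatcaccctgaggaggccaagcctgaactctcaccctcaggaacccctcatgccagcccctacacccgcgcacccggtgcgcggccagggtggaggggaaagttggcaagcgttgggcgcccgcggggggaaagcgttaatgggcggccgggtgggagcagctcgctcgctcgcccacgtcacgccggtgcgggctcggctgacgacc
Motifs of the factors' own families were searched on both strands: GATA (NGATAA or NGATAG with A or T at the start), NKX2-5 (TNAAGTG), T-box (AGGTGT), E-box (CANNTG, bound by helix-loop-helix factors) and MEF2. The Hand2 stretch held a GATA match beginning 172 bases before the start, TTATCT on this strand, and E-box matches beginning 243 and 232 bases before it. A GATA match stood in 26.7% of 27457 rat promoters of this length and an E-box match in 65.2%. The Irx4 stretch, with a GC content of 69.2% against 48.0% for Hand2, held no match to these motifs.

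Of the 8 factors with a promoter in the RefSeq table, Mef2a alone had a MEF2 match, CTAAAAATAG, beginning 40 bases before its start, and 3.07% of promoters had one. Tbx5 had a GATA and an E-box match and Nkx2-5 an E-box match, while Gata6, Tbx20 and Mef2d had none. Matches to the NKX2-5 and T-box motifs stood in 9.84% and 11.4% of promoters and in none of the 8. A match is a run of letters and not a measured binding site.

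Nkx2-5 (ENSRNOG00000020747), an early marker of the cardiac lineage and partner of the GATA and T-box factors, was above the control with each mimic. It was at 29.2 RPKM with cel-miR-67, 53.7 with miR-25, 42.1 with miR-93 and 36.7 with miR-106b. It rose with miR-93 (log2 ratio 0.52, 0.40 to 0.65) and most with miR-25 (0.88, 0.76 to 0.99, or 1.84-fold), and was within 1.3-fold with miR-106b (0.33, 0.21 to 0.45). It was the only one of the 10 factors to rise with miR-25, except that Mef2a passed the cutoff too (0.45) when scaled by the reads on the listed genes. Under that scaling Nkx2-5 also passed it with miR-106b (0.41).

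The T-box factors differed from each other. Tbx20 (ENSRNOG00000016181), which regulates adult heart muscle genes and chamber growth, was at 48.9 RPKM with cel-miR-67, 30.9 with miR-25, 42.6 with miR-93 and 51.6 with miR-106b. It fell with miR-25 (log2 ratio −0.66, −0.74 to −0.58) and was within 1.3-fold with miR-93 (−0.20, −0.27 to −0.13) and miR-106b (0.08, 0.01 to 0.15). Tbx5 (ENSRNOG00000001399), a factor of the left ventricle, atria and conduction system, was at 3.01 RPKM in the control, 3.10 with miR-25, 4.69 with miR-93 and 3.40 with miR-106b, and the miR-93 library stood above the other 3. It rose with miR-93 (0.64, 0.41 to 0.87), while its intervals with miR-106b (−0.07 to 0.42) and miR-25 (−0.21 to 0.30) included 0. Tbx20 made up 94.2% of the RPKM of this pair in the control, 90.9% with miR-25, 90.1% with miR-93 and 93.8% with miR-106b.

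Gata4 (ENSRNOG00000010708) and Gata6 (ENSRNOG00000023433) bind the same motif and take part together in heart muscle growth. Gata4 stayed within 1.3-fold in all comparisons, at 23.1 RPKM with cel-miR-67, 25.1 with miR-25, 22.0 with miR-93 and 25.6 with miR-106b. Its largest log2 ratio over the control was 0.15 (0.07 to 0.24), with miR-106b. Gata6 was at 8.62 RPKM in the control, 7.50 with miR-25, 13.2 with miR-93 and 9.84 with miR-106b. It rose with miR-93 (0.62, 0.47 to 0.76) and was within 1.3-fold with miR-106b (0.19) and miR-25 (−0.20, −0.36 to −0.04). Gata6 accounted for 27.2% of the RPKM of the pair in the control, 23.0% with miR-25, 37.6% with miR-93 and 27.7% with miR-106b.

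The Mef2 genes encode factors that bind as dimers to AT-rich sites in muscle genes and respond to kinases and class II histone deacetylases. Mef2d (ENSRNOG00000031778) was lower with each mimic, at 6.46 RPKM in the control (313 reads) and at 4.50, 5.14 and 4.67 in the libraries of miR-106b, of miR-93 and of miR-25 (286, 300 and 272 reads). It fell with miR-106b (log2 ratio −0.52, −0.76 to −0.29) and with miR-25 (−0.47, −0.71 to −0.23), and was within 1.3-fold with miR-93 (−0.33, −0.56 to −0.10). Scaled by the reads on the listed genes, its ratio with miR-25 was within the cutoff too (−0.32). Between the mimics its intervals included 0 in all 3 comparisons, from −0.38 to 0.43 at the widest bounds, so the 3 mimic libraries were not separated by counting error. Since the 3 comparisons share a control library, its value there enters each of them.

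Mef2a (ENSRNOG00000047756), the most abundant of the family, was higher with each mimic, at 36.6 RPKM with cel-miR-67, 45.0 with miR-25, 47.9 with miR-93 and 44.3 with miR-106b. Only the rise with miR-93 passed the cutoff (0.39, 0.33 to 0.45), and just so at 1.31-fold, beside 0.28 with miR-106b and 0.30 with miR-25. Mef2c (ENSRNOG00000033134), needed for the development of the heart tube, was at 4.97 RPKM in the control and at 4.30, 4.60 and 4.53 in the miR-106b, miR-93 and miR-25 libraries. Its log2 ratios of −0.21, −0.11 and −0.13 were within 1.3-fold with intervals below 0, and scaled by the reads on the listed genes the last 2 turned to 0.03 and 0.01. Mef2a held 76.2% of the summed RPKM of the 3 genes in the control and 83.0% to 83.4% with the mimics, and Mef2d 13.5% in the control and 8.47% to 8.91% with the mimics. These shares depend on the gene lengths, such as the 18075 bases of Mef2c. Scaled to library size alone, Mef2a had 164 RPM in the control, Mef2c 89.8 and Mef2d 13.8.

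**Figure D3:**
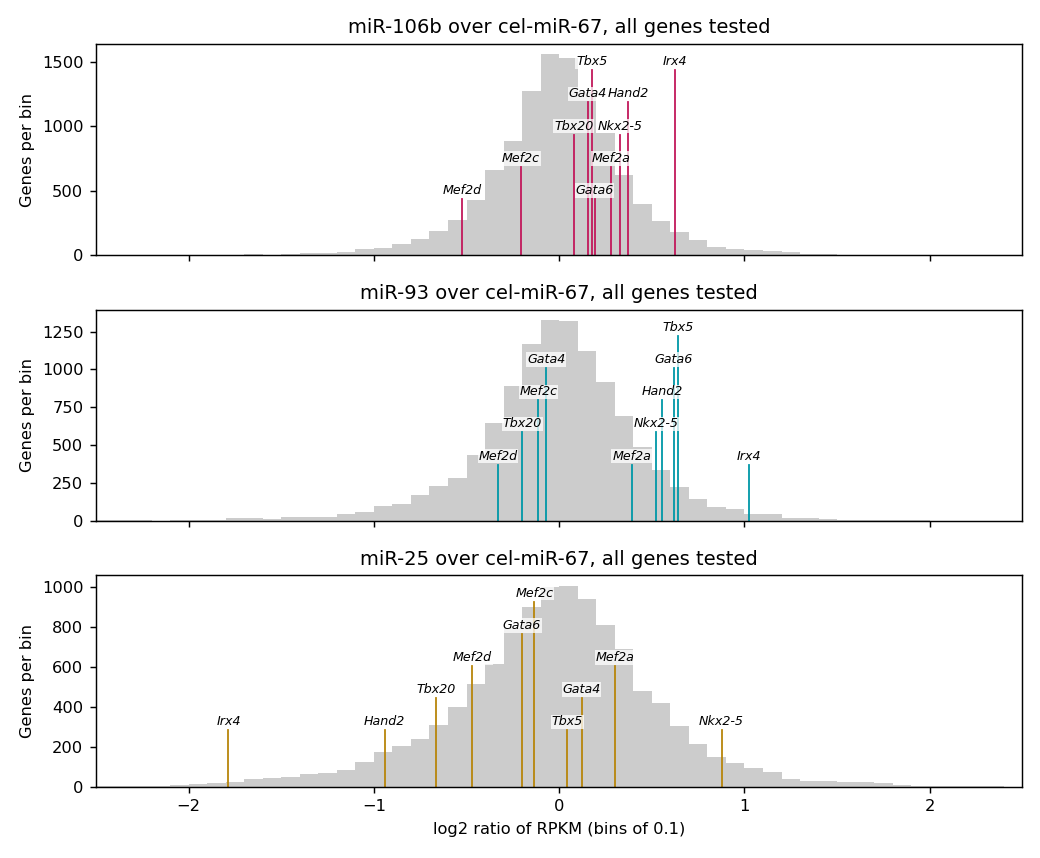
Histograms of the log2 ratio of RPKM, mimic over cel-miR-67, of all genes tested (grey, bins of 0.1), with the 10 factors as coloured lines whose height has no meaning; genes beyond the axis are not drawn. With miR-93, 6 lines lie right of 0.38 and none left of −0.38, and with miR-25, Irx4 at −1.78 lies in the left tail.

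Comparisons between mimics do not use the control library. Between miR-93 and miR-106b, which share a seed, Tbx5 (log2 ratio 0.47, 0.26 to 0.67), Gata6 (0.43, 0.30 to 0.55) and Irx4 (0.40, 0.28 to 0.52) were higher with miR-93 past 1.3-fold and none was lower. The background was 7.30% of 11391 genes higher and 8.21% lower. The other 7 factors were within 1.3-fold, from −0.28 for Tbx20 to 0.20 for Nkx2-5.

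Between miR-25 and miR-106b, Nkx2-5 was higher with miR-25 (0.55, 0.45 to 0.65), and Irx4, Hand2, Tbx20 and Gata6 were lower. The background was 22.1% and 23.0% of 11183 genes. Irx4 differed by −2.41 (−2.65 to −2.18) and Hand2 by −1.32 (−1.48 to −1.15) on the log2 scale. Tbx20 differed by −0.74 (−0.81 to −0.67) and Gata6 by −0.39 (−0.54 to −0.24).

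Between miR-25 and miR-93, 5 factors were lower with miR-25 and none higher, with a background of 23.0% and 22.1% of 11198 genes. Irx4 differed by −2.81 (−3.05 to −2.58), which ranked 15 from the lowest. Hand2 differed by −1.50 (−1.66 to −1.33), Gata6 by −0.82, Tbx5 by −0.60 and Tbx20 by −0.46. For Mef2c and Mef2d the intervals between miR-25 and either other mimic included 0.

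The genes of the same pathways were counted in 3 lists: other cardiac developmental factors, cofactors and regulators, and known target genes. The lists were chosen with earlier results of these data known, so their shares are not independent of the data. Of 32 other developmental factors, 14 passed the RPKM filter with miR-93, of which 8 rose and none fell, with a median log2 ratio of 0.49. Among the 8 were Gata5, Irx2, Irx3, Irx5, Meis1, Prox1 and Heyl. With miR-106b, none of 14 rose and 1 fell, and the median was 0.10. The gene that fell was Tcf21, a factor of epicardial cells that is also among the fibroblast markers, from 15.9 to 12.1 RPKM (−0.39). Its recovered reads were equal in both libraries, so this call rests on the library sizes alone. With miR-25, Irx2 was past the cutoff upwards (0.55) with an interval that included 0 (−0.03 to 1.14), and Tcf21 fell (−1.62) among 12, with a median of 0.07. With miR-93, 57.1% of this list rose and 0% fell, beside 15.1% and 15.6% of all genes tested. The shares with miR-106b were 0% and 7.14%, beside 11.9% and 12.7%. Those with miR-25 were 8.33% in each direction, beside 19.3% and 22.6%.

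Among the cofactors and regulators, 31 genes were tested with each mimic. With miR-106b, 2 rose (Zfpm1 and Mapk14) and 5 fell (Smyd1, Mapk7, Twist1, Bmp4 and Mbnl1), or 6.45% and 16.1% of the list beside 11.9% and 12.7% of all genes. The interval of Twist1 reached from −0.80 to 0.01 and so included 0. Smyd1 and Twist1 (both −0.39 with miR-106b) had equal recovered reads in both libraries, so these calls rest on the library sizes alone. With miR-93, 6 rose and 1 fell (Mapk7), and with miR-25, 7 rose and 4 fell (Hopx, Smyd1, Mapk7 and Bmp4). These were 19.4% and 3.23% of the list with miR-93, beside 15.1% and 15.6% of all genes, and 22.6% and 12.9% with miR-25, beside 19.3% and 22.6%. Zfpm1, a cofactor of the GATA factors, was at 1.51 RPKM in the control and at 2.79 with miR-25, 3.90 with miR-93 and 3.37 with miR-106b, past the cutoff in each. Mapk14, the p38 kinase that acts on Mef2 factors, was at 5.44 RPKM in the control and at 7.18, 12.0 and 11.2 in the same order. Mapk7, the kinase ERK5 that acts on them too, was at 3.83 RPKM in the control and fell to 1.95, 2.20 and 2.01 RPKM. The comparisons share that control library. Medians were between −0.02 and 0.01, near those of all genes. Among those above 10 RPKM in both libraries, Mbnl1, a splicing regulator, fell most with miR-106b (−0.49, −0.62 to −0.36) and Camk2d, a calcium-dependent kinase, rose most with miR-93 (0.48, 0.41 to 0.56). With miR-25, Smyd1, a muscle histone methyltransferase needed for Hand2 expression in the developing heart, fell from 49.3 to 14.9 RPKM (−1.72, −1.89 to −1.57). Wwtr1, a coactivator of the Hippo pathway, rose from 20.8 to 28.8 RPKM (0.47).

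Known target genes moved in both directions. Of 39 tested with miR-106b, 6 rose and 13 fell (median −0.14), and with miR-93 12 rose and 15 fell (median −0.21). With miR-25, 5 rose (Nppa, Des, Klf2 and Ppargc1a among them) and 24 fell of 37, a median of −0.55, and the interval of Klf2 included 0 (−0.08 to 0.94). The shares that fell were 33.3% for miR-106b, 38.5% for miR-93 and 64.9% for miR-25, beside 12.7%, 15.6% and 22.6% of all genes. The shares that rose were 15.4%, 30.8% and 13.5%, beside 11.9%, 15.1% and 19.3%. Myl7, the atrial myosin regulatory light chain, rose from 18.8 RPKM to 81.2 with the miR-106b mimic (2.11) and to 155 with the miR-93 mimic (3.04), the largest rises of the list above 10 RPKM. Nppa, which encodes atrial natriuretic peptide and is activated by Gata4, Nkx2-5 and Tbx5, was at 1860 RPKM in the control. It was at 261 RPKM with miR-93 (−2.83) and at 4425 with miR-25 (1.25), beside Gata4 within 1.3-fold in both, Nkx2-5 at 0.52 and 0.88, and Tbx5 at 0.64 and 0.04. Xirp2, a Mef2a target, was at 63.0 RPKM in the control, fell to 20.6 with miR-106b (−1.61) and to 2.82 with miR-93 (−4.48, −4.58 to −4.38), the lowest ratio of the list in each of these comparisons. Tnni3, cardiac troponin I, had the lowest ratio of the list with miR-25, from 351 to 15.9 RPKM (−4.47).

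**Figure D4:**
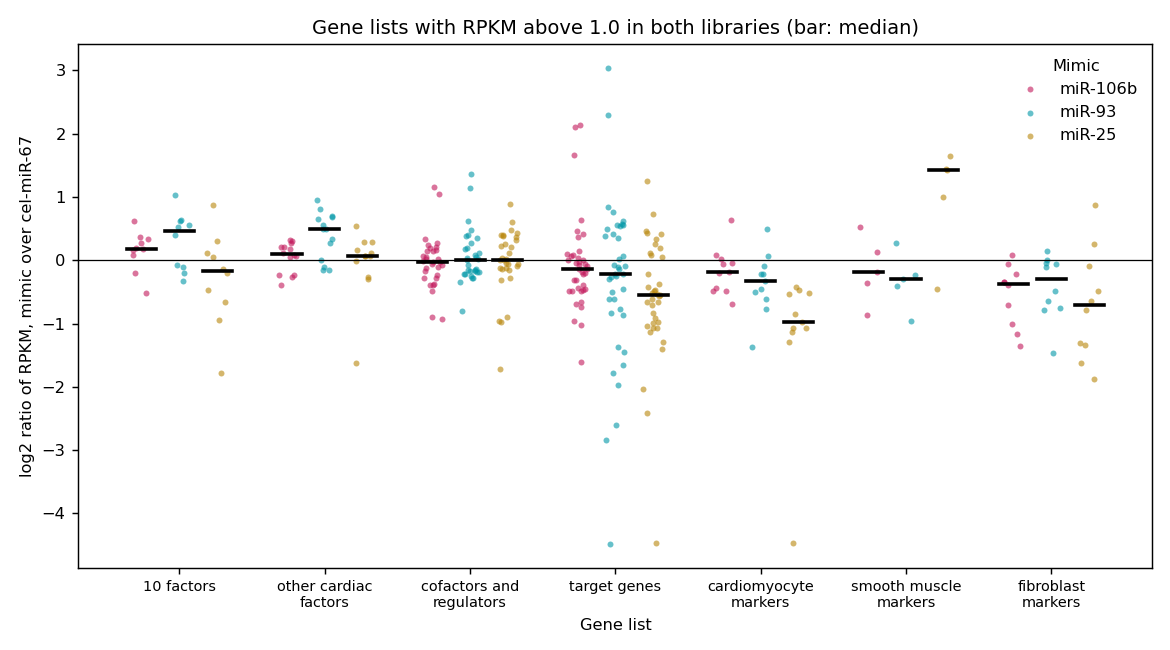
Log2 ratio of RPKM, mimic over cel-miR-67, of the 10 factors and of 6 gene lists, 1 point per gene with RPKM above 1.0 in both libraries and a bar at the median. With miR-93 the medians of the 10 factors (0.46) and of the other cardiac factors (0.49) lie above 0, and with miR-25 those of the target genes (−0.55) and cardiomyocyte markers (−0.98) lie below it.

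Markers of cell types differed between libraries too. Of 12 cardiomyocyte markers, 11 were found, with a lowest value of 15.9 RPKM in any library, and 10 of the 12 are also in the target list. Their summed RPKM was 22989 with cel-miR-67 and 0.876, 0.665 and 0.571 times that for the mimics in the order miR-106b, miR-93, miR-25. With miR-25 all 11 fell, with a median log2 ratio of −0.98, beside −1.78 for Irx4, −0.94 for Hand2, −0.66 for Tbx20 and 0.88 for Nkx2-5. Tnni3 instead rose with miR-106b (0.63) and miR-93 (0.49), where the largest falls were those of Ryr2 (−0.69), the calcium release channel, and Actc1 (−1.37), cardiac actin. The 10 fibroblast markers summed to 0.780, 0.901 and 0.411 times the control, and 7 of them fell and 1 rose with miR-25. Postn, a matrix protein, had the largest fall above 10 RPKM with miR-106b (−1.16) and miR-93 (−0.64), and Col1a2, a collagen chain, with miR-25 (−1.87). The 5 smooth muscle markers summed to 0.922, 0.786 and 2.74 times the control, and with miR-25 4 of them rose, such as Cnn1 from 88.8 to 278 RPKM (1.65), and 1 fell. Over all genes tested with miR-25, 19.3% rose and 22.6% fell. The sums follow the most abundant markers, the highest fibroblast marker being at 327 of a summed 852 RPKM in the control. Cnn1 also rose with miR-106b (0.53) and fell with miR-93 (−0.96).

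The 7 macrophage markers summed to 1.06, 1.24 and 0.540 times the control and the 6 epicardial markers to 1.11, 1.34 and 1.48 times. The macrophage markers are low, with a sum of 13.7 RPKM in the control. With miR-25, 3 of the 6 epicardial markers rose and 1 fell (Aldh1a2, −1.19). Of 4 macrophage markers tested with miR-25, 0 rose and 3 fell. Over all genes tested with miR-25, 19.3% rose and 22.6% fell. Of 8 endothelial markers 7 were found, and they summed to only 5.75 to 8.56 RPKM in any library. No marker found was at 0. The part of these differences in the values of the factors was not tested, and in bulk RNA fewer cells of a type and less RNA per cell cannot be told apart.

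The genes whose 3 log2 ratios lay nearest to those of a factor were sought among 4045 genes above 10 RPKM in all libraries, by the Euclidean distance of the ratios. Nearest to Irx4 were Palldl1 (distance 0.18, with ratios of 0.48, 0.94 and −1.83), Ppp1r14c (0.41) and Mlf1 (0.48). For Hand2 they were Pla2g5 and Cox8a (both 0.12) and Ddc (0.20), and for Mef2d Abcf3 (0.05), Pofut2 (0.06) and Twf1 (0.07). The distances were smaller for Mef2d than for Irx4, but the ratios of Irx4 lie further from 0, where there are fewer genes. Those of Mef2d are also smaller than the reach of its counting intervals, such as −0.76 to −0.29 with miR-106b. All these distances are over 3 comparisons that share a control library.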

How the data were processed

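RNA of 4 cultures was sequenced, 1 library for each mimic. By the study's methods and the labels, adaptors were cut from the reads, STAR 2.7 placed them on Rnor 6.0, a rat genome build, and the authors turned rounded counts per gene into RPKM with edgeR. The program that counted reads is not given in the sources used here. The deposited RPKM values are not counts, so no count test was the main result. With 1 library per mimic, none was run.

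Whole reads were recovered from the steps of the deposited RPKM values for 15731 of 15731 genes (100%, the rebuilt RPKM differing by at most 1.5e-08 of its value). The recovery was tested on data simulated from the recovered reads, lengths and library sizes, so that test cannot show whether these are the true ones. The study's methods state fewer reads per sample than the recovered library sizes, on which the intervals rest. A fold change is the ratio of RPKM values without a pseudocount, called past 1.3-fold where RPKM is above 1.0 in both libraries, the cutoffs of the study's results text. The study's methods give an RPKM cutoff of 2.0 instead, at which the counts of factors called were the same. Intervals are exact Clopper-Pearson intervals (ratios) and exact Poisson intervals (levels) at 95%.

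The factors and gene lists were chosen with earlier results of these data known. Named beside the 10 factors are the largest rise and fall of each list with each mimic above 10 RPKM, the 3 nearest patterns for Hand2, Mef2d and the factor with the widest range, and, named after their values were seen, Irx2, Irx3 and Irx5, the miR-93 value of Xirp2, members of list counts of 5 or fewer and risers of the developmental list with miR-93. Some genes that this rule selects are left unreported. Names held by more than 1 gene, 176 in all, stayed out of the lists. Alternatives were RPKM cutoffs of 2.0 and 10 or none, folds of 1.5 and 2, pseudocounts of 0.1 and 1, 3 other library scalings and a 99% interval. Gene coordinates of the files' build and target sites in messenger RNAs were not used here. Statistics used scipy 1.17.1, tables pandas 2.3.3 and numpy 2.4.6, and figures matplotlib 3.10.9, under Python 3.11.15.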

Additional observations from a re-analysis of the deposited data

How the results depend on the processing

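Of 150 ratios of single factors recomputed under 5 settings, 135 stayed inside their counting interval. The 15 outside it all came from scaling by the reads on listed genes, except Irx4 with miR-25 (−1.45 with a pseudocount of 1). Centring on the median gene and scaling by the upper quartile of reads moved no ratio out of its interval, but they hardly shift the ratios. With the upper quartile the median with miR-93 was 0.48. No ratio past the cutoff changed direction, and 4 crossed the cutoff. All 4 crossings came from scaling by the reads on listed genes instead of the library size, which shifts every log2 ratio up by 0.08 (miR-106b) or 0.15 (the others). Under it, Nkx2-5 (0.41) and Hand2 (0.46) passed the cutoff with miR-106b, and with miR-25 Mef2a passed it (0.45) and Mef2d no longer did (−0.32). With miR-106b, 4 factors were then called, 3 higher and 1 lower, in place of 2, 1 in each direction. The shares of all genes called under this scaling are not given, so its counts have no background here. With miR-25, 2 were higher and 3 lower in place of 1 and 4, and the median log2 ratio was −0.019 in place of −0.17. The median with miR-93 was 0.60 in place of 0.46, and 0 intervals lay below 0 in place of 3.

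An RPKM cutoff of 10 left 0 called with miR-106b (0 higher, 0 lower), 3 higher with miR-93, and 3 in the miR-25 comparison (2 lower), since factors with low RPKM are not tested there. A fold of 1.5 left 1 called with miR-106b (0 lower) and 3 higher with miR-93. A fold of 2 left 0 with miR-106b (0 higher, 0 lower), 1 higher with miR-93 and 1 in the miR-25 comparison (0 higher, 1 lower). The shares of all genes called at these other cutoffs are not given, so these counts have no background here. No paired analysis was possible because each mimic has 1 library. For the same reason the spread between cultures is unknown. Depth limits the factors with fewest reads most, but the intervals that included 0 were those of small ratios. They were Tbx5 with miR-106b (0.17) and miR-25 (0.04), and Gata4 with miR-93 (−0.07, 2014 reads). The interval of Irx4 with miR-25, at 172 reads, lay below 0. Gata4 with miR-93, and Mef2c with miR-93 and miR-25, all within 1.3-fold, turned from below to above 0 under the scaling by reads on listed genes.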
